A study of Mus musculus with 6 samples.

Results

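Ribosome biogenesis was examined through 43 nucleolar genes in cultured mouse fat cells labelled knockout for Ythdf1, which encodes a reader of m6A, the methyl mark on adenosines of messenger RNA. The genes were taken from a list by symbol, and all 43 were found among the 53801 gene identifiers of the count table. They comprised Myc, 7 genes of RNA polymerase I transcription, 3 of the box C/D and 4 of the box H/ACA small nucleolar ribonucleoproteins, 5 multifunctional nucleolar proteins, 13 genes of the small subunit processome and 40S maturation, and 10 of 60S assembly. Cells of the stromal vascular fraction, the part of fat tissue that holds adipocyte progenitors, were isolated from the inguinal white fat of Ythdf1 knockout and wild-type mice. They were induced towards adipocytes in culture, and RNA was sequenced on day 4 in 3 Ythdf1 knockout and 3 wild-type libraries, which the series calls biological replicates. The labels name neither the strain, age and sex of the mice nor the part of Ythdf1 that was deleted, nor whether the cells of several mice were pooled.

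Ribosomes are built in the nucleolus, where RNA polymerase I transcribes the precursor of the large ribosomal RNAs. Small nucleolar RNAs bound to protein cores then guide methylation and pseudouridylation of that precursor, while large assemblies of processing factors fold it, cleave it and load it with ribosomal proteins to give the 40S and 60S subunits. The genes of these factors are classical targets of the transcription factor Myc, which binds the E-box CACGTG, and their output is generally high in dividing cells.

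Total counts were 17693082 to 20089138 in the knockout and 16619605 to 17700068 in the wild-type libraries, so that 3 counts corresponded to 0.146 to 0.185 CPM (counts scaled by library size). Ythdf1 itself was at 45.1, 42.8 and 43.5 CPM in knockout replicates 1 to 3, against 63.0, 62.1 and 60.4 CPM in wild-type replicates 1 to 3. The groups did not overlap, and the transcript fell by 0.50 ± 0.08 on the log2 scale (SE; adjusted p = 0.000378), which checks the genotype labels only in part because the fold of 0.709 leaves much of the transcript counted. All 12 markers of mature adipocytes were higher in the knockout (summed 18021 to 24008 CPM, against 3987 to 6205 CPM in wild type), and 9 of 12 markers of progenitors and fibroblasts were lower (20451 to 22306 CPM, against 47806 to 50864 CPM). All 24 cell division genes were lower as well, with a sum of 584 to 807 CPM in knockout and 1126 to 1378 CPM in wild-type libraries. Macrophage markers were higher for 9 of 12 genes, with sums of 251, 264 and 715 CPM in knockout replicates 1 to 3 against 81.2 to 162 CPM in wild type, and none of the 12 was at 0. Of the epithelial markers, 6 of 7 tested were lower, with a median log2 fold change of -3.43 over the list, and only Krt19 did not pass (0.08). The list sum was 38.9 to 51.5 CPM in the knockout and 53.8 to 68.9 CPM in wild type. Of 8 endothelial markers 1 passed, as higher, and 7 had positive log2 fold changes with a median over the list of 0.45, while the sums overlapped (25.2 to 37.9 CPM in the knockout, against 22.8 to 29.4 CPM in wild type). Lymphocyte genes had at most 9 counts in a library, with Cd3e, Cd3d and Cd3g at 0 in every knockout library and Cd3d and Ms4a1 at 0 in every wild-type library. The part of these marker shifts in the results for nucleolar genes was not tested, and fewer cells of a type cannot be told apart from less RNA per cell in bulk samples.

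The nucleolar genes had mostly small fold changes, with rises of Rrp12, Bysl and Rrp9 and falls of Npm1 and Nop58 at the ends of the range. In the quasi-likelihood test of edgeR, adjusted by Benjamini-Hochberg over all 14816 genes tested, 9 of the 43 were higher and 2 lower in the knockout, while 32 did not pass. That is 25.6% of them called at an adjusted p under 0.05, against 44.3% of all genes tested, or 22.6% higher and 21.7% lower. Among the 9913 genes within the mean CPM range of the 43 (6.76 to 434 CPM), 48.9% were called. The median log2 fold change, knockout over wild type, was 0.09 for the nucleolar genes and 0.01 for all genes, and the median absolute value was 0.18 and 0.36. Only Rrp12 was called with a change of at least 2-fold, 2.33% of the 43, against 15.6% of all genes tested. The 95% interval of the fold change lay within 1.5-fold either way for 38 of the 43 genes (88.4%) and for 38.0% of all genes. Genes of like mean CPM were not counted separately for this share. With upper-quartile scaling the split was 4 higher and 4 lower. The number of higher genes was 5 without knockout replicate 1, 5 without knockout replicate 2, 8 without knockout replicate 3, which had the highest sum of macrophage markers, and 4 without each of wild-type replicates 1, 2 and 3. The 2 lower genes were called in each of these 6 fits.

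**Figure D1:**
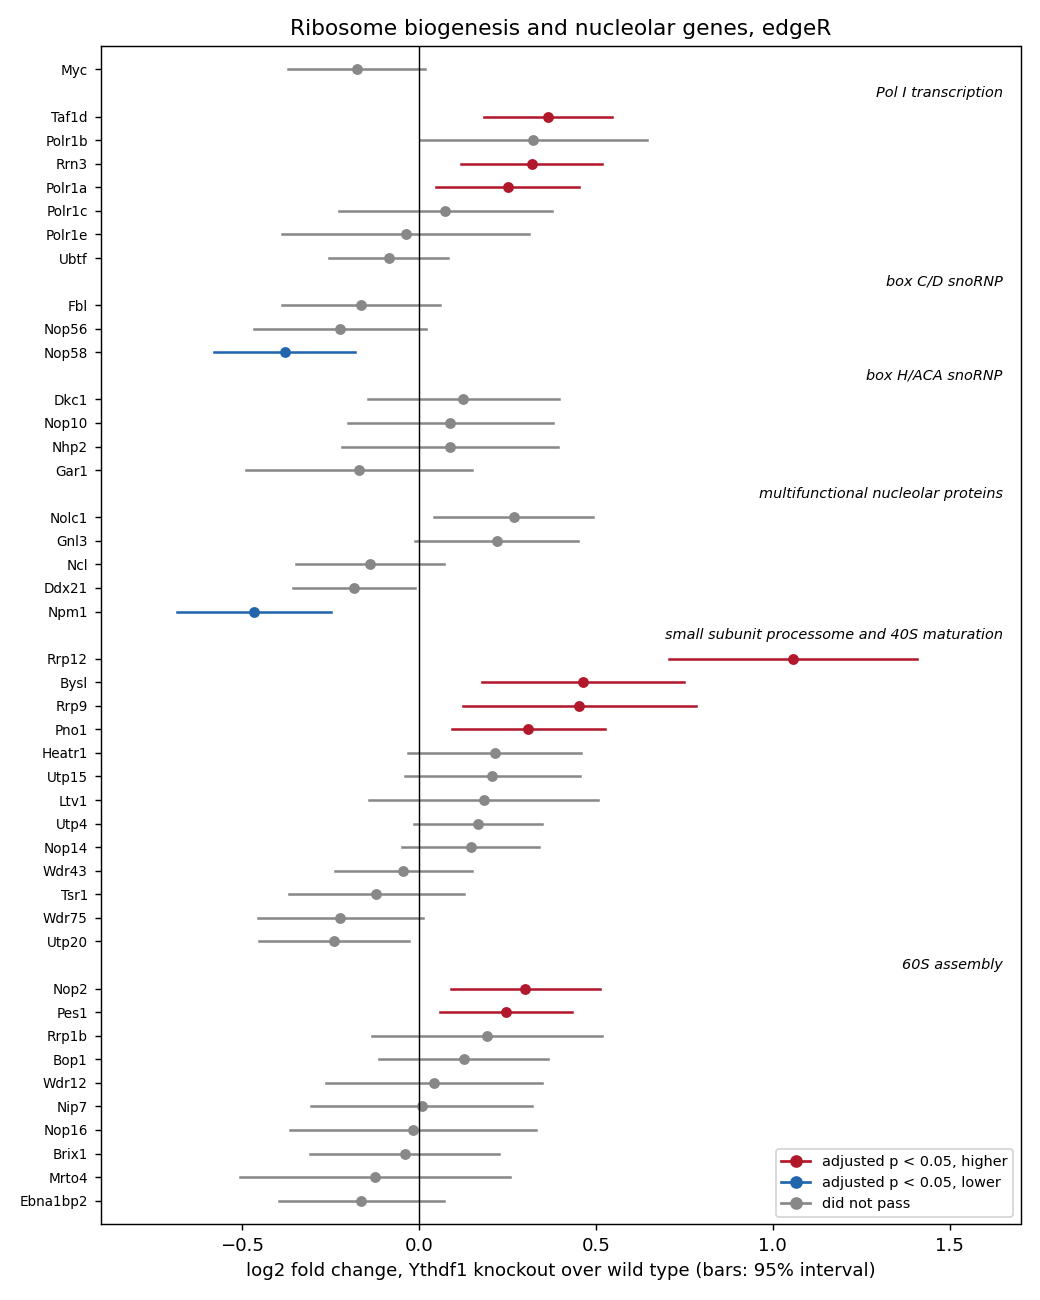
Log2 fold change of each nucleolar gene, Ythdf1 knockout over wild type (horizontal axis), with its 95% interval, the genes being grouped by role down the page. Most intervals lie close to 0, Rrp12 stands at 1.06 and Npm1 at -0.47.

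In 22 of the 43 genes the CPM values of the groups did not overlap, 16 with the knockout above and 6 with the knockout below. Over all genes tested, 55.2% did not overlap, 27.9% with the knockout above and 27.3% below. All 11 called genes were among the 22, and 11 others were separated without passing the test. Replicates were close, with a median coefficient of variation of 7.84% in the knockout and 6.33% in wild type over the 43 genes, against 11.5% and 10.03% over all genes tested. The median level was 24.8 CPM for the 43 genes and 18.8 CPM for all genes tested. The spread of genes of like level was not computed. Knockout replicate 2 held the highest knockout value for 25 of the 43 genes, replicate 1 for 5 and replicate 3 for 13, while the highest wild-type values were spread over its replicates as 15, 14 and 14. Without knockout replicate 2 the median log2 fold change of the 43 genes was -0.01, and without knockout replicate 1 it was 0.15.

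**Figure D2:**
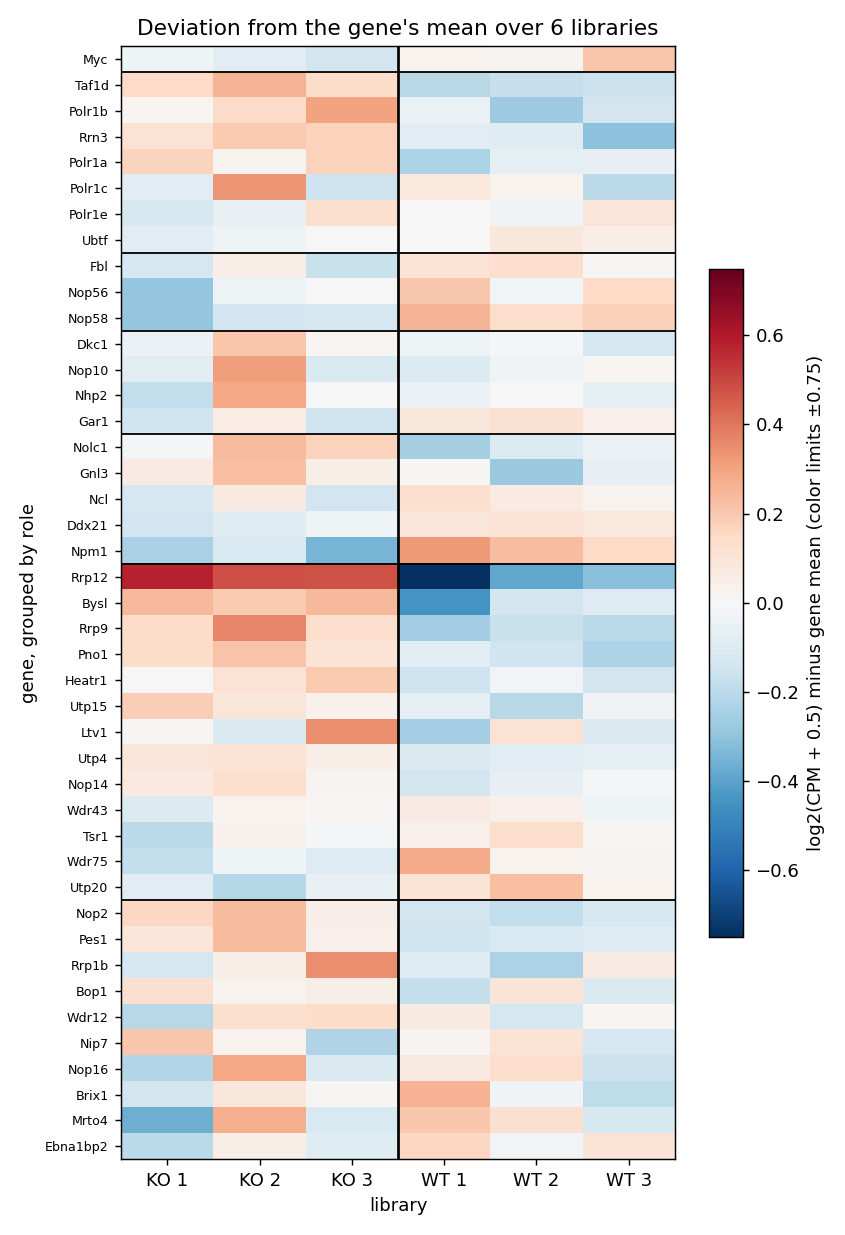
Heat map of log2(CPM + 0.5) minus the mean of the gene over the 6 libraries, with nucleolar genes in rows grouped by role, and libraries in columns, Ythdf1 knockout left of wild type. Rrp12 is far above its mean in all 3 knockout libraries, and many genes of knockout replicate 2 are darker red than those of knockout replicate 1.

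Because Myc is tied to the E-box, the promoters of the nucleolar genes were read for it. RefSeq promoters on GRCm38.p6, from 250 bases before to 50 after the start site, were matched by symbol for 38 of the 43 genes. Rrp12, Npm1, Myc, Fbl and Bop1 had none matched. The palindrome CACGTG, whose reading is the same on both strands, occurred in 9 of 38 (23.7%), against 10.1% of the 10841 matched promoters of all genes tested and 7.24% of the whole table. It occurred in 4 of 8 higher genes, in 5 of 29 genes that did not pass and not in Nop58, the single lower gene with a promoter. The higher genes Bysl, Polr1a, Rrp9 and Taf1d had none. The 5 that did not pass had log2 fold changes of either sign: Ltv1 (0.18), Utp4 (0.17), Wdr43 (-0.04), Tsr1 (-0.12) and Utp20 (-0.24). The ETS factor motif CCGGAAG, searched on both strands, was found in 14 of 38 (36.8%) against 17.6% of all genes tested. Other ribosome biogenesis genes held the E-box in 17.1% and the ETS motif in 47.6% of their promoters, and ribosomal protein genes held the E-box in 8.62% and the ETS motif in 39.7%. The NRF1 motif GCATGCGC was in 1 of 38 (2.63% against 5.20%), and the palindrome of ZBTB33 (Kaiso) was in 0 of 38 (1.02% of all genes tested), both strands being read. A match is a description of the sequence and not of a bound site, and these letters can occur outside the windows read.

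The 4 higher genes with an E-box and the lower gene Nop58 without one are shown, 5′ to 3′ along the strand of the gene, with CACGTG in capitals. They are a selection, and the higher genes without an E-box and the E-box genes that did not pass are not printed. Rrn3 is at chr16:13780449-13780748 on the plus strand, with E-boxes beginning at positions -215 and -48 relative to the start site, which is counted as 0. Nop2 is at chr6:125131633-125131932 on the plus strand, with its E-box at -60. Pes1 is at chr11:3963725-3964024 on the plus strand and Pno1 at chr11:17211540-17211839 on the minus strand, with E-boxes at 2 and 37, downstream of the start. Nop58 is at chr1:59684756-59685055 on the plus strand.
Rrn3: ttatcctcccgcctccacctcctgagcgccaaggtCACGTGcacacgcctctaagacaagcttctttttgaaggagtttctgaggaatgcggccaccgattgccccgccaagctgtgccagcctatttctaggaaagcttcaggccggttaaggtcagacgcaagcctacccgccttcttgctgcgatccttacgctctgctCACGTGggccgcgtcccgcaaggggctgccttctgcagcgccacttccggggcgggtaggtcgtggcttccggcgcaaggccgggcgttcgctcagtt
Nop2: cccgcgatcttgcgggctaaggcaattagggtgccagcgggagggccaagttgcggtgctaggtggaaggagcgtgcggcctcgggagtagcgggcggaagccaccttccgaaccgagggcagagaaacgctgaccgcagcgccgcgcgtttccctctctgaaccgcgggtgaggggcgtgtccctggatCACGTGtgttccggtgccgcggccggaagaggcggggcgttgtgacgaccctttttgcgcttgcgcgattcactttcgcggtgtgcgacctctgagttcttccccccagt
Pes1: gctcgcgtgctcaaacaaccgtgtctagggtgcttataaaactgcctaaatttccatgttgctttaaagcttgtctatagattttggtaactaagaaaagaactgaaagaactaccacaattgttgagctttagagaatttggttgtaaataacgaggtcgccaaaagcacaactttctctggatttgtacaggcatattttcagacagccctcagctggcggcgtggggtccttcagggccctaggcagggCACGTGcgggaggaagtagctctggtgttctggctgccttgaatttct
Pno1: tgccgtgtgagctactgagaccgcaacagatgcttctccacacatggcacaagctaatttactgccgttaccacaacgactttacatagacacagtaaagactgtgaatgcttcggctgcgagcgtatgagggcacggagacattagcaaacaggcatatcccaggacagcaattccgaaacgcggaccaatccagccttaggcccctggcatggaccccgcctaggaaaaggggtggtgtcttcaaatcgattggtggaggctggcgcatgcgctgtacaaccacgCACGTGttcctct
Nop58: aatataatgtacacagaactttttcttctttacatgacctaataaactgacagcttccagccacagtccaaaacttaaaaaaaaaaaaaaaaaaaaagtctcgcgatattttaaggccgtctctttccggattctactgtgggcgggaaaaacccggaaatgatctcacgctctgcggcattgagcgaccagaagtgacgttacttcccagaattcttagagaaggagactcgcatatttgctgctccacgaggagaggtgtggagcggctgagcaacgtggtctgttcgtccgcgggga

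Myc was not called, although it is the regulator most often tied to this programme. It was at 46.8, 45.1 and 43.5 CPM in the knockout and at 48.8, 48.6 and 55.5 CPM in wild type. Every knockout library lay below every wild-type library, but the distance was small and wild-type replicate 3 stood above the other two. The log2 fold change was -0.18 ± 0.09 (SE; adjusted p = 0.128, edgeR), with a fold interval of 0.774 to 1.01. In the 16 alternative fits its adjusted p stayed between 0.0546 and 0.360.

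Of the 7 genes of RNA polymerase I transcription, 3 rose and none fell. That is 42.9% called, against 44.3% of all genes tested (22.6% higher and 21.7% lower). The summed level of the 7 genes was 259 to 275 CPM in the knockout against 235 to 246 CPM in wild type. Taf1d, a subunit of the promoter selectivity factor SL1, was at 49.04, 53.01 and 48.7 CPM in the knockout and at 38.3, 39.2 and 39.6 CPM in wild type. The groups were well apart, with very similar wild-type values. Its log2 fold change was 0.36 ± 0.08 (adjusted p = 0.00396, edgeR). Rrn3, the initiation factor that brings the polymerase to SL1, was at 52.1, 55.3 and 54.4 CPM in the knockout, against 45.6, 45.3 and 38.9 CPM in wild type. Again the groups did not overlap, and wild-type replicate 3 was the lowest of the 6. The change was 0.32 ± 0.09 on the log2 scale (adjusted p = 0.0138, edgeR), and adjusted p was 0.0530 without wild-type replicate 3, the highest of a range of 0.00902 to 0.0530 over 16 alternatives. Polr1a, the largest subunit of the polymerase, was at 43.05, 39.0 and 43.1 CPM in knockout libraries and at 32.3, 36.5 and 36.5 CPM in wild-type libraries. Its groups were separated by a narrow gap, and it passed barely, with a log2 fold change of 0.25 ± 0.09 (adjusted p = 0.0452, edgeR) that lost its call in 10 of 16 alternatives (adjusted p 0.0183 to 0.176). Among these were the fits without knockout replicate 1 (adjusted p 0.140), knockout replicate 3 (0.0935), wild-type replicate 1 (0.176), replicate 2 (0.0839) and replicate 3 (0.0590). Polr1b, the second largest subunit, was 0.32 ± 0.15 higher on the log2 scale without passing (adjusted p = 0.0949). For Ubtf, which binds ribosomal DNA, for Polr1c, a subunit shared with RNA polymerase III, and for Polr1e, the values were -0.09, 0.07 and -0.04 on the log2 scale.

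The reads of Taf1d may not all be its own. The strand setting of the counting is not given in the sources used here, and 235 bases of Taf1d exons overlap 4931406C07Rik on the opposite strand. That gene averaged 399 ± 17.7 CPM in the knockout and 141 ± 26.7 CPM in wild type (SD, n = 3 each; log2 fold change 1.502). Exon overlaps with a gene on the opposite strand were present in 16 of the 43 genes, among the called ones also in Bysl (361 bases with Ccnd3, log2 fold change -0.24), Polr1a (185 bases), Pes1 (138 bases), Pno1 (33 bases) and Rrp9 (20 bases). The part of such reads in the changes of these genes was not tested.

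The box C/D particles guide 2′-O-methylation of ribosomal RNA. Of their core proteins, Nop58 fell, and the log2 fold changes of Nop56 and Fbl were negative without passing. Called were thus 33.3% of these 3 genes, against 44.3% of all genes tested. Snu13, the core protein outside the 43 genes, was at -0.04 (adjusted p = 0.771, edgeR). Nop58 was at 28.8, 31.9 and 32.3 CPM in the knockout, against 42.3, 38.8 and 40.01 CPM in wild type. The knockout libraries all lay well below the wild-type ones. It fell by 0.38 ± 0.09 on the log2 scale (adjusted p = 0.00524, edgeR; fold interval 0.670 to 0.882). Its partner Nop56 was at 22.5, 26.9 and 27.7 CPM in the knockout and at 31.8, 27.3 and 30.7 CPM in wild type. Here the groups overlapped, and the log2 fold change of -0.22 ± 0.11 did not pass (adjusted p = 0.125). Fbl, the methyltransferase fibrillarin, was at 22.7, 25.6 and 22.0 CPM in the knockout and at 26.7, 27.0 and 24.9 CPM in wild type, with knockout replicate 2 reaching into the wild-type range. Its log2 fold change was -0.16 ± 0.10 (adjusted p = 0.217). The summed level of the 3 genes was 80.1 ± 5.46 CPM in the knockout and 96.5 ± 3.93 CPM in wild type (SD, n = 3 each).

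None of the 4 genes of the box H/ACA particles, which convert uridine to pseudouridine, passed edgeR's test, 0 had an unadjusted p under 0.05, and none passed in DESeq2 or limma-voom. Over all genes tested, edgeR called 44.3%, and a group of 4 genes is small for setting a share beside it. Dkc1, the pseudouridine synthase, was at 14.0, 16.8 and 14.6 CPM in the knockout and at 14.0, 14.3 and 13.1 CPM in wild type. The groups overlapped, with knockout replicate 2 the highest. The log2 fold change of Dkc1 was 0.13 ± 0.12 (adjusted p = 0.439), with a fold interval of 0.905 to 1.31. Gar1 was at 7.37, 8.58 and 7.36 CPM in the knockout, against 8.77, 8.96 and 8.46 CPM in wild type, where only knockout replicate 2 reached the wild-type range. The log2 values were -0.17 for Gar1, 0.09 for Nop10 and 0.09 for Nhp2. The summed level was 58.4 ± 8.25 CPM in the knockout and 56.0 ± 1.10 CPM in wild type.

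Of the 43 genes, 8 carry small nucleolar RNA genes in their introns or exons, 29 in all. They are Taf1d, Ncl, Nop56, Nop58, Dkc1, Wdr43, Gnl3 and Tsr1, of which Taf1d rose and Nop58 fell (25% called, against 44.3% of all genes tested). Only 9 of the 29 small nucleolar RNA genes had any count, and none passed the filter. Mature small nucleolar RNAs were therefore not measured here, and neither was the ribosomal RNA precursor.

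Among the multifunctional nucleolar proteins, Npm1 fell and the other 4 did not pass. The share called was 20%, against 44.3% of all genes tested. Npm1 (nucleophosmin), an abundant chaperone that gives the nucleolus much of its granular part, was at 361, 396 and 336 CPM in the knockout and at 534, 502 and 474 CPM in wild type. No knockout library came near the lowest wild-type one. It fell by 0.47 ± 0.10 on the log2 scale (adjusted p = 0.00267, edgeR; fold interval 0.622 to 0.841). Ncl (nucleolin), which binds nascent ribosomal RNA, was at 344, 395 and 341 CPM in the knockout, against 410, 394 and 384 CPM in wild type. Knockout replicate 2 lay within the wild-type range, and the log2 fold change of -0.14 ± 0.10 did not pass (adjusted p = 0.267). In all, 8 pseudogene copies of Npm1 at 90% identity or more were in the table, and their counts came to 0.789% of those of Npm1.

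Nolc1, which helps small nucleolar ribonucleoproteins to assemble, missed the threshold narrowly. It was at 31.7, 37.8 and 36.2 CPM in the knockout and at 26.9, 29.8 and 31.1 CPM in wild type, so that the groups were separated by a small gap. Its log2 fold change was 0.27 ± 0.10 (adjusted p = 0.0523, edgeR). Nolc1 was called in 2 of 16 alternatives, without knockout replicate 1 (adjusted p 0.0394) and with the suffix of the library name as a covariate. Over the 16 its adjusted p ran from 0.0394 to 0.188. The RNA helicase Ddx21 was at 47.9, 49.8 and 51.6 CPM in the knockout and at 56.6, 57.1 and 56.0 CPM in wild type. All knockout values lay below the tight wild-type cluster, with a log2 fold change of -0.18 ± 0.08 that did not pass (adjusted p = 0.0787). For Gnl3, nucleostemin, the log2 fold change was 0.22 ± 0.11 (adjusted p = 0.113).

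The small subunit group held the largest change, that of Rrp12, with 4 of 13 genes higher and none lower. That is 30.8% called, against 44.3% of all genes tested. Rrp12, known from yeast as a factor for export of both subunits, lies at chr19:41862851-41896173 (GRCm38, minus strand). It was at 15.6, 14.5 and 14.5 CPM in the knockout and at 5.54, 7.72 and 8.17 CPM in wild type. Even the highest wild-type library was far below the lowest knockout one, and wild-type replicate 1 was lowest. The gene rose by 1.06 ± 0.16 on the log2 scale (adjusted p = 0.000275, edgeR), a 1.63 to 2.65-fold interval, and in 16 alternatives the log2 fold change was between 0.90 and 1.17. Bysl, a 40S maturation factor, was at 16.9, 16.4 and 17.0 CPM in the knockout, against 10.3, 12.9 and 13.3 CPM in wild type. Its 3 knockout values were nearly alike and stood clear of the wild type. The rise was 0.46 ± 0.13 on the log2 scale (adjusted p = 0.0131, edgeR), with an adjusted p of 0.0602 without wild-type replicate 1 (0.00543 to 0.0602 over 16 alternatives).

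Rrp9, which binds the U3 small nucleolar RNA, was at 8.69, 10.2 and 8.63 CPM in the knockout and at 6.45, 6.92 and 6.74 CPM in wild type. The groups were separated, with knockout replicate 2 on top. Its log2 fold change was 0.45 ± 0.15 (adjusted p = 0.0289, edgeR), but the call was lost in 9 of 16 alternatives. These include the fits without knockout replicate 1 (adjusted p 0.0530), knockout replicate 2 (0.101), and wild-type replicates 1 (0.0864), 2 (0.0684) and 3 (0.0613), in a range of 0.0254 to 0.101. Pno1, a late 40S factor, was at 25.9, 27.3 and 25.2 CPM in the knockout and at 22.2, 21.1 and 19.9 CPM in wild type. These values did not overlap, and the log2 fold change was 0.31 ± 0.10 (adjusted p = 0.0245, edgeR). The call of Pno1 was lost in 5 of 16 alternatives, among them without knockout replicate 1 (adjusted p 0.0633), knockout replicate 2 (0.0574), wild-type replicate 2 (0.0749) and wild-type replicate 3 (0.0783), in a range of 0.0105 to 0.0783.

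Utp20, a large processome scaffold, had the third lowest log2 fold change of the 43 genes. It was at 29.5, 26.8 and 29.9 CPM in the knockout and at 33.5, 36.6 and 31.8 CPM in wild type, without overlap. At -0.24 ± 0.10 on the log2 scale it did not pass (adjusted p = 0.0633). The other 8 genes of this group had log2 fold changes between -0.22 (Wdr75) and 0.21 (Heatr1), none of which passed. Utp4, Utp15, Heatr1 and Nop14 had every knockout value above every wild-type value, and Wdr75 the reverse. Such separation was common, with 27.9% of all genes tested wholly above and 27.3% wholly below in the knockout. The summed level of the 13 genes was 295 to 303 CPM in the knockout and 274 to 284 CPM in wild type.

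**Figure D3:**
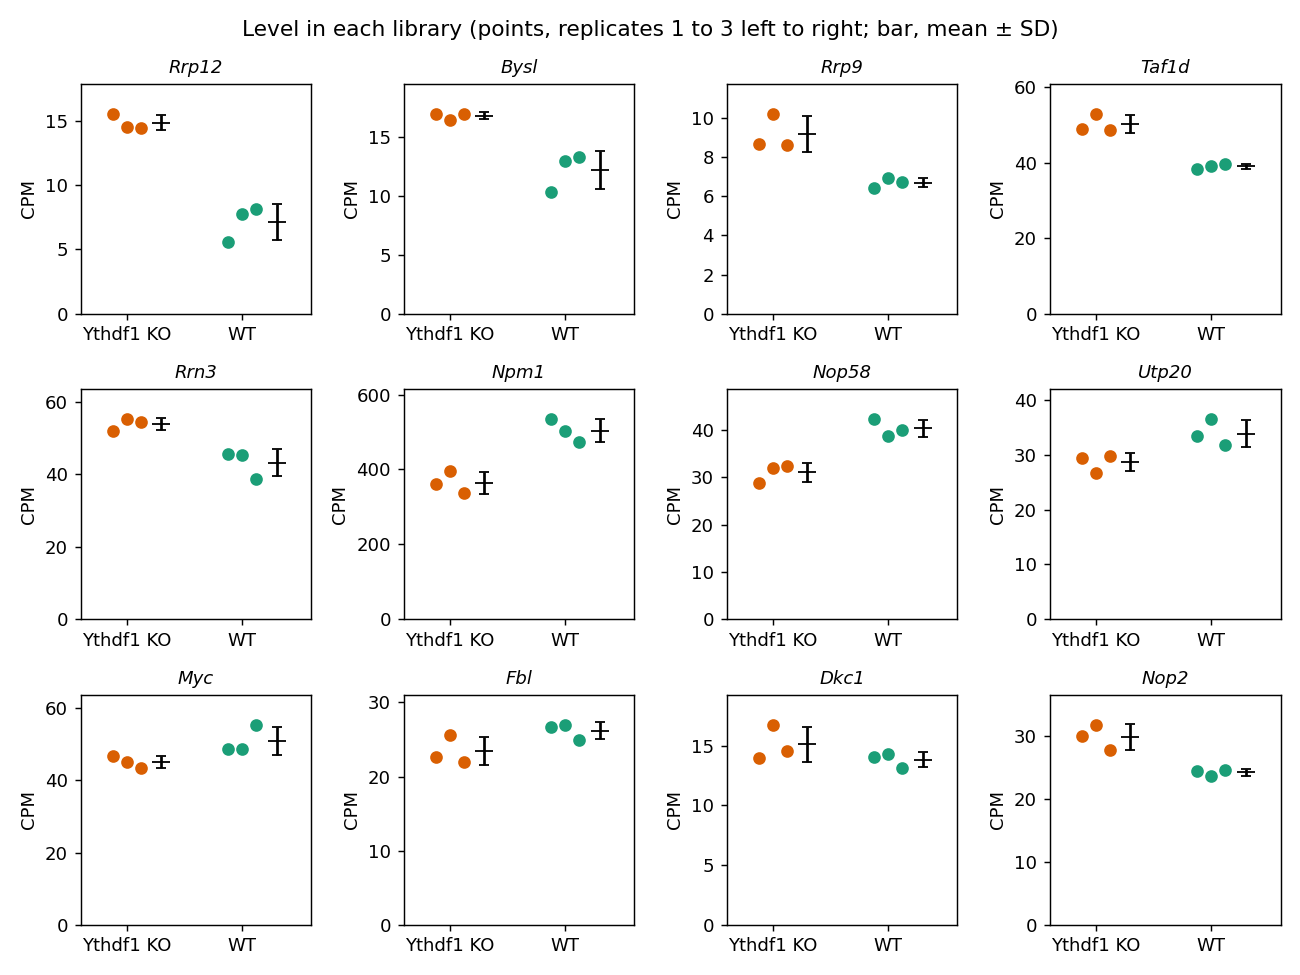
CPM of 12 nucleolar genes in each library, Ythdf1 knockout left of wild type, with replicates 1 to 3 as points and mean ± SD as a bar. Rrp12, Bysl, Rrp9, Taf1d, Rrn3 and Nop2 are higher and Npm1 and Nop58 lower in all 3 knockout libraries. Utp20 and Myc, which were not called, are also lower in all 3, whereas the values of Fbl and Dkc1 overlap.

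In 60S assembly, 2 of 10 genes rose and none fell, which is 20% called against 44.3% of all genes tested. Nop2, a methyltransferase of the large ribosomal RNA, was at 30.0, 31.8 and 27.7 CPM in the knockout and at 24.4, 23.6 and 24.6 CPM in wild type. The wild-type values were nearly equal and all below the knockout. The log2 fold change was 0.30 ± 0.10 (adjusted p = 0.0239, edgeR). The call of Nop2 was lost in 5 of 16 alternatives. Without knockout replicates 1 and 2 in turn the adjusted p was 0.0713 and 0.0637, and without wild-type replicates 1 and 2 in turn 0.0609 and 0.0900, in a range of 0.00656 to 0.0900. Pes1, of the complex that Pes1, Bop1 and Wdr12 form for the large subunit, was at 56.6, 62.8 and 54.6 CPM in the knockout and at 47.8, 49.1 and 49.7 CPM in wild type. There was no overlap, and the log2 fold change was 0.25 ± 0.09 (adjusted p = 0.0347, edgeR). The call of Pes1 was lost in 9 of 16 alternatives, including those without knockout replicate 1 (adjusted p 0.0737), knockout replicate 2 (0.0874), and wild-type replicates 1 (0.103), 2 (0.0986) and 3 (0.0609), in a range of 0.0192 to 0.103. Its partners Bop1 and Wdr12 were at 0.13 and 0.04 on the log2 scale, and neither passed (adjusted p = 0.377 and 0.834, edgeR). Ebna1bp2 was at 21.4, 25.7 and 23.2 CPM in the knockout and at 27.7, 24.4 and 26.6 CPM in wild type, overlapping, with a log2 fold change of -0.16. The remaining 5, Rrp1b, Mrto4, Brix1, Nop16 and Nip7, ranged between -0.13 and 0.19, and in all 5 the groups overlapped.

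Levels of different genes can be compared only per length, and per kb of annotated exon the 43 genes spanned a wide range. Exons of all annotated transcripts were joined, which lowers the value of genes with retained introns or long alternative ends. Npm1 ranked first with 137 ± 11.2 CPM per kb in the knockout and 189 ± 11.4 CPM per kb in wild type, and Ncl second with 35.3 ± 3.0005 CPM per kb in the knockout and 38.9 ± 1.29 CPM per kb in wild type. Wdr12 was lowest at 1.10 ± 0.149 CPM per kb in the knockout and 1.07 ± 0.0787 CPM per kb in wild type. Rrp12 was at rank 34 in the knockout and at rank 41 in wild type, with 3.42 and 1.647 CPM per kb, and Nop58 was at rank 37 in the knockout and at rank 31 in wild type. Polr1e and Wdr12, at ranks 42 and 43 in the knockout, remained well above 3 counts in each library.

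The summed level of all 43 genes, which is weighted towards Npm1 and Ncl, overlapped between genotypes. It was 1767, 1942 and 1778 CPM in the knockout and 2006, 1957 and 1905 CPM in wild type, and knockout replicate 2 lay above wild-type replicate 3. Npm1 and Ncl made up 38.1% to 40.7% of the sum in the knockout and 45.0% to 47.1% in wild type. Without both, the other genes summed to 1063, 1151 and 1101 CPM in the knockout and to 1061, 1061 and 1047 CPM in wild type (mean 1105 ± 44.2 CPM in the knockout and 1057 ± 8.10 CPM in wild type; SD, n = 3 each). Here every knockout library lay above every wild-type library, knockout replicate 1 by a narrow margin. Both genes left out had negative log2 fold changes (-0.47 for Npm1 and -0.14 for Ncl), so the direction depends on leaving them out. With all 43 genes the mean was 1829 ± 97.8 CPM in the knockout and 1956 ± 50.3 CPM in wild type.

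The genes that encode the ribosomal proteins themselves were mostly lower in the knockout. Of 79 cytosolic ribosomal protein genes, 59 were lower and 1 higher, with a median log2 fold change of -0.46. That is 75.9% called, against 44.3% of all genes tested. Their summed level was 23848, 29487 and 20934 CPM in the knockout, against 37453, 34382 and 31500 CPM in wild type, and knockout replicate 2 was again the highest of its group. The ratio of that sum to the sum of the 43 nucleolar genes was 13.5, 15.2 and 11.8 in the knockout and 18.7, 17.6 and 16.5 in wild type. The ratios did not overlap. The lowest log2 fold change of the 79 was that of Rplp0, of the ribosomal stalk (-1.41), the only gene of the list called with a change of at least 2-fold. Rplp0 was at 530 ± 83.6 CPM in the knockout and 1406 ± 112 CPM in wild type. Counts of ribosomal protein genes are uncertain because many have processed copies.

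**Figure D4:**
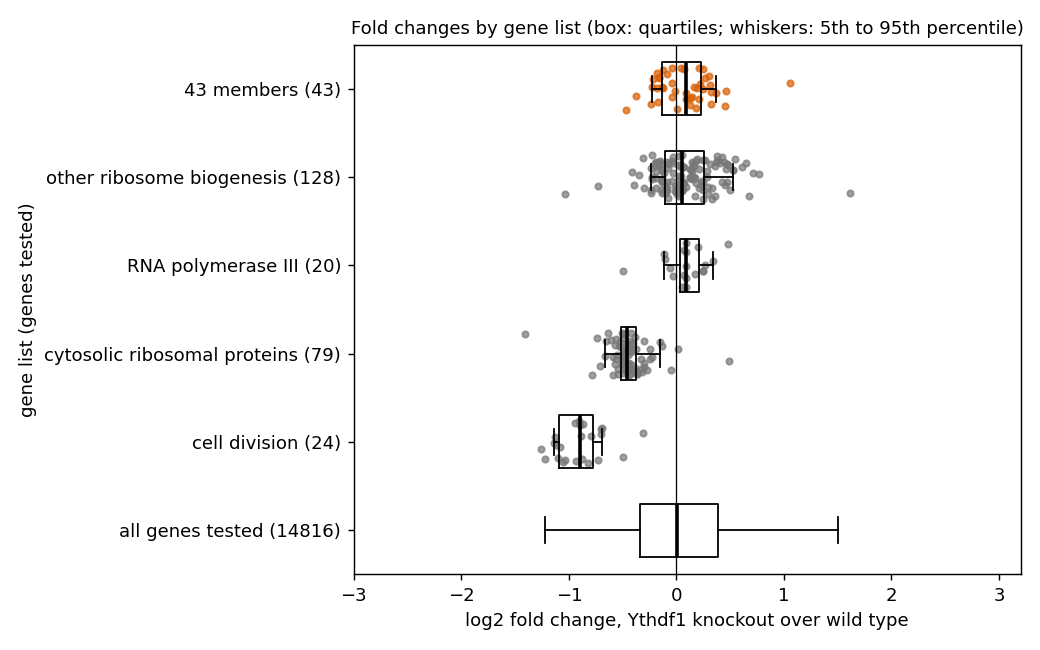
Log2 fold changes, Ythdf1 knockout over wild type (horizontal axis), of the genes of each list (points), with boxes for quartiles and whiskers for the 5th to 95th percentile. The 43 nucleolar genes and the 128 other biogenesis genes centre near 0, the ribosomal protein genes near -0.46 and the cell division genes near -0.90.

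Beyond the 43, a wider set of ribosome biogenesis genes was counted in the same fit. Of 128 further genes tested from 4 lists, 22 were higher and 4 lower, with a median log2 fold change of 0.05. That is 20.3% called, against 44.3% of all genes tested. Further genes of RNA polymerase I and SL1 gave 0 calls among 8 in edgeR's test, with 1 at an unadjusted p under 0.05, and the more abundant Polr1d was at 64.8 ± 12.4 CPM in the knockout and 51.5 ± 3.64 CPM in wild type (adjusted p = 0.0534), and Ttf1 was at 25.8 ± 0.860 CPM in the knockout and 23.6 ± 1.19 CPM in wild type (adjusted p = 0.299). In the small subunit list 9 of 47 were higher and none lower (19.1% called). Nol6, a processome protein, was at 55.5 ± 1.92 CPM in the knockout and 36.3 ± 3.68 CPM in wild type (log2 fold change 0.61, adjusted p = 0.00031), and Noc4l, Fcf1 and Emg1 rose by 0.71, 0.52 and 0.46 on the log2 scale. In the 60S list 12 of 58 were higher and 3 lower (25.9% called). Urb1, an early 60S factor known from yeast, was at 18.2 ± 2.31 CPM in the knockout and 5.94 ± 0.308 CPM in wild type (log2 fold change 1.61, adjusted p = 6.1e-06), and Pak1ip1 rose by 0.67. The falls were those of Znhit6 (-1.04), Gnl3l (-0.73), a relative of nucleostemin, and Nsa2 (-0.34). Znhit6 is a factor of box C/D assembly, although it was counted in the 60S list. Of 15 RNA exosome genes, Exosc7 rose by 0.38, Exosc8 fell by 0.42 and the other 13 did not pass.

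Genes that act around the nucleolus gave mixed counts. The share called was 20% of RNA polymerase III genes, 45.5% of the Myc network and 46.7% of Myc targets. It was 50% of nucleolar stress genes and 64.3% of mTORC1 genes, against 44.3% of all genes tested (22.6% higher and 21.7% lower). Of 20 RNA polymerase III genes, Polr3gl, Gtf3c6 and Polr3c rose (log2 fold changes 0.48, 0.34 and 0.24) and Polr3d fell by 0.50. Of 11 genes of the Myc network, 4 were higher and 1 lower. Mlxipl, the carbohydrate response factor ChREBP, was at 77.6 ± 6.44 CPM in the knockout and 6.34 ± 3.36 CPM in wild type (log2 fold change 3.61, adjusted p = 0.000146), and the Myc antagonist Mxd1 rose by 0.90. Of 30 Myc targets outside the nucleolus, 6 were higher, such as the mitochondrial chaperone Hspd1 (1.07), and 8 lower, such as the CTP synthase gene Ctps (-1.14). Among 14 genes of nucleolar stress and p53, 6 were lower, including Ccng1 (-0.71), Cdkn2a (-0.91) and Zmat3 (-0.50), and Phlda3 was higher (0.53). Among 14 genes of mTORC1 and growth signalling, 8 were higher and 1 lower. The list holds inhibitors of the pathway, such as Tsc1, Tsc2 and Deptor, beside Mtor, so this count gives no direction of signalling. Mtor was at 119 ± 9.29 CPM in the knockout and 60.8 ± 4.48 CPM in wild type (log2 fold change 0.96, adjusted p = 9.73e-06, edgeR).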

How the data were processed

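RNA of 3 Ythdf1 knockout and 3 wild-type libraries was sequenced after depletion of ribosomal RNA, as pairs of 150 bp per the labels' protocols. The deposited table holds whole-number counts per Ensembl gene, made by the authors and not normalized. STAR and featureCounts on mm10 and GRCm38 are named in the submitters' processing notes; their versions, the annotation and the strand setting were not given in those notes or elsewhere in the sources read.

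Symbols and coordinates came from GENCODE mouse release 21 (GRCm38), which held 53706 of 53801 identifiers. The low-count filter filterByExpr of edgeR 4.0.16 (R 4.3.3), at a count of 10 and a total of 15, retained 14816 of 28268 genes that had counts. After TMM scaling, knockout was set against wild type in the robust legacy form of the quasi-likelihood F test (2-sided, no covariate), adjusted by Benjamini-Hochberg at 0.05 over all genes tested. The fit was also tested on simulated counts. CPM values refer to the scaled totals of tested genes. Floors of 3 counts and intervals of single counts cover counting error only, and 95% intervals of folds come from the fit. Replicates were distinct libraries, with a chi-square per degree of freedom of 10.2 to 26.3 within and 160 to 242 between genotypes. Pseudogene copies were matched with BLAST+ 2.17.0 (90% identity over at least 50% of the copy).

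The 43 genes and all other lists were chosen with earlier results of these data known. Values of every library are printed for Myc, the 3 largest rises and falls, and the 1 to 3 genes of each role with the smallest p; of other lists, up to 4 called genes of lowest p, or otherwise abundant ones, were named. Nsa2, Ncl and other genes outside that rule were picked once their values were known. Riok2 was not matched and is not analysed here. The alternatives comprised DESeq2 1.42.0, voom with quality weights (limma 3.58.1), RLE or upper-quartile scaling, other low-count filters, the replicate number as a block, the library suffix, fewer genes, and each replicate left out.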

Additional observations from a re-analysis of the deposited data

How the results depend on the processing

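Of the 11 called nucleolar genes, Rrp12, Taf1d, Npm1 and Nop58 kept their call in all 16 alternatives, Rrn3 and Bysl lost it in 1 each, and Polr1a, Pes1, Rrp9, Nop2 and Pno1 in several; none of the 11 changed sign. Of the 32 that were not called, 6 (Nop56, Nolc1, Utp15, Utp20, Gnl3 and Ddx21) passed in some alternative. The 9 higher genes became 4 with upper-quartile factors, and 4 to 8 with each replicate left out. They were 6 with DESeq2, 6 with no low-count filter and 11 with limma-voom. The 2 lower genes became 4 with upper-quartile factors and 5 with limma-voom, and were 2 to 2 with each replicate left out. The 4 lower genes of the wider biogenesis set became 7 with upper-quartile factors and 10 with limma-voom, and 2 to 6 with each replicate left out, 2 being without wild-type replicate 1. The cause of these shifts was not tested; upper-quartile factors moved the median of all genes by -0.05 (log2). Calls over all genes ranged from 5276 to 7824.

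With the replicate number as a block, 6 nucleolar genes were higher and 2 lower, and 6129 genes were called in all, against 6561 without it. The labels do not say that the numbers pair libraries: same-numbered libraries deviated with r of -0.15, 0.02 and -0.16. Of the 6 libraries, only wild-type replicate 2 correlated best with its own number.

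Log2 fold changes near 0 changed sign for 10 of the 32. They were -0.016 for Polr1c, -0.053 for Nhp2 and -0.034 for Wdr12 with limma-voom, and -0.014 for Wdr12 and -0.047 for Nip7 with upper-quartile factors. With each replicate left out the values ran from -0.0892 to 0.173 for Polr1c, -0.114 to 0.0196 for Polr1e, -0.185 to 0.0903 for Nop16, -0.0490 to 0.197 for Nhp2, -0.0616 to 0.171 for Nop10, -0.0195 to 0.153 for Wdr12, -0.0718 to 2.39e-05 for Wdr43, -0.318 to 0.0191 for Mrto4, -0.0981 to 0.120 for Nip7 and -0.141 to 0.0927 for Brix1.

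The limits are few libraries and unknown counting settings. Each group had only 3 libraries, a gene that misses the threshold is not shown to be equal, and a difference in isolation or culture that coincided with genotype cannot be told apart from it. Reads shared with overlapping genes were not separated.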
